A study of Mus musculus with 3 samples.

Results

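The genes examined here are the myeloid lineage transcription factors *Cebpa*, *Cebpb*, *Cebpd*, *Cebpe*, *Spi1*, *Irf8*, *Gfi1*, *Sall1* and *Gata2*, which are 9 genes chosen by symbol from a table of 27998 genes. A row was matched for 8 of them, and *Cebpd* is not analysed here. They were read in single cells of the meninges, the membranes around the brain, of male C57BL/6J mice aged 10 to 12 weeks. Homecage control (HC) mice were unstressed, and chronic social defeat (CSD) mice went through 14 days of defeat and were picked as stress-susceptible by their behaviour. Each library ran in its own lane of 1 chip. There were 3 libraries, named HC replicate 1, HC replicate 2, CSD replicate 1, and values are given in this order below. Each library was made from a pool of 4 mice, and live nucleated single cells were sorted before capture in droplets. With 1 CSD pool, stress and what is particular to that pool cannot be told apart.

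Barcodes were taken as cells with at least 500 UMIs (unique molecular identifiers, each marking 1 captured RNA molecule), 174 to 4548 genes and under 8.3% of UMIs from mitochondrial genes, which gave 7057 cells. Doublet removal left 2552, 1677 and 2642 cells, from libraries of 9891861, 8814690 and 10206236 UMIs. HC replicate 2 stood apart in its free RNA, since 24.1% of its UMIs lay in near-empty barcodes (100 UMIs or fewer), against 7.87% in HC replicate 1 and 5.48% in CSD replicate 1. The libraries shared between 3 and 8 cell barcodes. Clusters were formed without the 8 genes and named from other markers, and each name below means only that the cells resemble that type. A level in CPM counts how many of every 1000000 UMIs from the cells of a type in a library came from the gene, and is given as the mean ± SD over the 3 libraries (n = 3). Only the 3′ end of each RNA was counted, so levels are compared between cells and not between genes.

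Blood cells of the myeloid lineages are made under the control of a small set of transcription factors. PU.1, the product of *Spi1*, is needed in nearly all of them, and C/EBP factors act with it along the path to neutrophils, where *Cebpa* opens the granulocyte program and *Cebpe* drives the genes of the secondary granules. IRF8 favours monocytes and dendritic cells over neutrophils, GFI1 represses monocyte genes in granulocyte progenitors, GATA2 serves progenitors, mast cells and basophils, and SALL1 is a factor of microglia.

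*Cebpe* (ENSMUSG00000052435, chr14:54710363-54712174, with this and the other gene positions from RefSeq on GRCm38.p6) marked the early stages of the neutrophil lineage. In cluster 5, a preneutrophil-like cluster of 166 cells led by *Camp*, *Ngp* and *Chil3*, its level was 990, 987 and 1049 CPM in the libraries in order (1008 ± 35.0). Immature-neutrophil-like cells had 600.4, 633 and 687 CPM in the same order (640.2 ± 43.6), and mature-neutrophil-like cells had 169, 184 and 151 CPM (168 ± 16.6). The 3 ranges did not overlap. Of the 10 leading genes of cluster 5, 5 were on the marker list of immature neutrophils and 2 on that of preneutrophils, so it is given below by its number.

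T-cell-like cells, which should lack *Cebpe*, still had 78.5, 50.5 and 105 CPM, so this level is read as background. Mature-neutrophil-like cells lay above it in each library, while classical-monocyte-like cells (65.9 ± 20.04), microglia-like cells (74.6 ± 9.22) and border-macrophage-like cells (66.9 ± 12.4) did not. After every cell was thinned to 500 UMIs, 35.5% of cells in cluster 5 held a *Cebpe* UMI. That share was 25.8% in immature-neutrophil-like, 6.95% in mature-neutrophil-like and 4.44% in T-cell-like cells. Before thinning, the median depth was 10770 UMIs in cluster 5 and 2387.5 in T-cell-like cells.

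Within these stages, *Cebpe* differed among clusters. The 2 immature-neutrophil-like clusters had 777 ± 128 CPM (cluster 19) and 548 ± 51.7 (cluster 13), and the mature-neutrophil-like clusters had 218 ± 35.2 (cluster 3), 115 ± 22.9 (cluster 2) and 124 ± 35.1 (cluster 4, which was led by *Il1b*). The ranges of the last 2 clusters overlapped, and both reached the background. Cluster 2 in CSD replicate 1 had 89.0 CPM, below the 105 of T-cell-like cells there. Cluster 4 in HC replicate 2 had 84.1 CPM, within the range of NK-cell-like cells over the libraries. The cells called myeloid-progenitor-like (cluster 14) were named by their mean marker score, and 0 of their 10 leading genes, *Plac8* and ribosomal protein genes, were on that marker list. In these cells *Cebpe* stood at 264 CPM in HC replicate 1 against 90.5 and 108 in the other libraries. The neutrophil elastase gene *Elane*, a primary granule gene of progenitors, moved with it, at 6765 CPM in HC replicate 1 against 278 in HC replicate 2 and 1424 in CSD replicate 1. Its part in the *Cebpe* level was not tested.

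**Figure D1:**
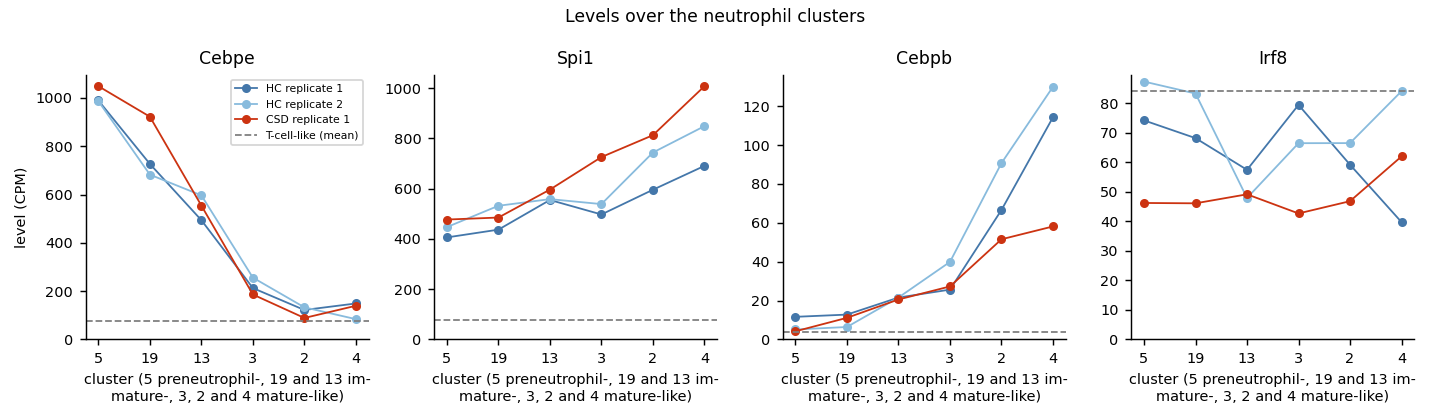
Levels in CPM of *Cebpe*, *Spi1*, *Cebpb* and *Irf8* in the neutrophil-lineage clusters, with 1 line for each library, a dashed line at the mean of T-cell-like cells, and clusters in order of stage and, within a stage, of falling immature neutrophil markers. *Cebpe* goes from 1008 CPM in cluster 5 to 124 in cluster 4, whereas *Cebpb* goes from 6.995 to 101.

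The genes whose levels were most like that of *Cebpe* over 51 sums of UMIs (19 cell types, each library with at least 20 cells of the type) were *Camp* (Pearson r = 0.90), *4930438A08Rik* (0.89) and *Ngp* (0.89). *Camp* encodes the antimicrobial peptide cathelicidin, and *Camp* and *Ngp* were among the genes by which clusters were named. Sums from 1 library share its free RNA and depth, so this and the other correlations below are descriptions. Of 9 granule genes known as targets of C/EBP epsilon, 7 had a promoter sequence, from 250 bases before to 50 after the start of the gene (RefSeq, GRCm38.p6). The C/EBP motif TTGCNNAA was present on either strand in 4 of these 7 (*Ltf*, *Ngp*, *Lcn2* and *Mmp8*) and in 10.8% of all 32851 promoters. It was absent from the promoters of *Camp*, the gene most like *Cebpe*, *Chil3* and *Lyz2*. Among the 6 transcription factors with a promoter sequence, the motif was found in 1 of 2 promoters of *Gfi1* and in none of *Cebpa*, *Cebpb*, *Irf8*, *Sall1* and *Gata2*. A match is a run of letters and not evidence of binding. The promoter of *Ngp* (chr9:110419558-110419857, + strand), one of the genes most like *Cebpe*, and that of *Lcn2* (chr2:32387690-32387989, - strand), whose level in immature-neutrophil-like cells is compared below, are printed 5′ to 3′ with the motif in capitals.
Ngp: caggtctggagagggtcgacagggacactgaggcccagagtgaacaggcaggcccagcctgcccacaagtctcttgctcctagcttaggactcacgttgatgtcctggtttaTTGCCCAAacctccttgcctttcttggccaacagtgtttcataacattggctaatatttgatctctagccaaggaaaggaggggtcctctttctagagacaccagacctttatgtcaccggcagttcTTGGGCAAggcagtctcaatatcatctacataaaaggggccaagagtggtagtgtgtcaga
Lcn2: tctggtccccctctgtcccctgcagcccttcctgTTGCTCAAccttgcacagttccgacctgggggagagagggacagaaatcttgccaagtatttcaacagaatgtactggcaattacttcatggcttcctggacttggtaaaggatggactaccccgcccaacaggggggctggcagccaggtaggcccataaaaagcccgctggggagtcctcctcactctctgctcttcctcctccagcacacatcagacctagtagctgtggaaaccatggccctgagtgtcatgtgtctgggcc

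*Gfi1* (ENSMUSG00000029275, chr5:107716655-107725805) was seen in 74 UMIs in all. Myeloid-progenitor-like cells had 17.4, 12.1 and 7.42 CPM (12.3 ± 4.99, from 10 UMIs) and cluster 5 had 17.5, 10.3 and 8.41 CPM (12.1 ± 4.78, from 22 UMIs), with overlapping ranges. Immature-neutrophil-like cells had 4.39 ± 2.11 CPM from 16 UMIs. Mature-neutrophil-like cells had 0 UMIs in every library, which allows up to 3.48, 5.03 and 1.96 CPM when 3 counts are taken as the limit of detection. T-cell-like cells held 6 UMIs (8.61 ± 4.09 CPM), and their range overlapped that of cluster 5. The gene most like *Gfi1* reached an r of only 0.62 (*RP23-6I17.1*).

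*Cebpb* (ENSMUSG00000056501, chr2:167688915-167690432), a C/EBP factor of mature and activated myeloid cells, ran the opposite way to *Cebpe*. Mature-neutrophil-like cells had 59.2, 73.7 and 39.3 CPM (57.4 ± 17.3), above classical-monocyte-like cells with 31.8, 27.6 and 29.5 (29.6 ± 2.09). Immature-neutrophil-like cells had 17.5, 15.1 and 17.2 CPM (16.6 ± 1.33), and the 3 ranges did not overlap. Among the clusters its level was 6.995 ± 4.05 CPM in cluster 5, 10.1 ± 3.31 in cluster 19, 21.2 ± 0.575 in cluster 13, 30.9 ± 7.80 in cluster 3, 69.6 ± 19.8 in cluster 2 and 101 ± 37.8 in cluster 4. The ranges of clusters 2 and 4 overlapped, as did those of clusters 5 and 19. Basophil-like cells had 28.8 ± 30.3 CPM from 4 UMIs, and T-cell-like cells held 2 UMIs in all. *Tnfaip2* (r = 0.82), *Card19* (0.81) and *Nadk* (0.76) had the most similar levels.

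*Cebpa* (ENSMUSG00000034957, chr7:35119293-35121928) was highest in microglia-like cells, with 89.1, 82.0 and 30.4 CPM (67.1 ± 32.0, from 57 UMIs). The CSD value rested on 5 UMIs. Basophil-like cells followed with 45.9 ± 43.3 CPM from 8 UMIs, then border-macrophage-like cells with 32.6 ± 11.3, classical-monocyte-like cells with 26.4 ± 3.10, and the range of each overlapped that of the next. Myeloid-progenitor-like cells, at 11.6 ± 0.472 CPM from 9 UMIs, lay below classical-monocyte-like cells without overlap. Cluster 5 had 0.835 ± 0.751 CPM from 2 UMIs, immature-neutrophil-like cells 3.61 ± 1.34 and mature-neutrophil-like cells 9.19 ± 3.65. T-cell-like cells had 3.06 ± 2.84 CPM from 2 UMIs, below progenitor- and mature-neutrophil-like cells in each library. Olfactory-sensory-neuron-like cells had 13.4 ± 3.01, and their share of free RNA was estimated at 100%, 70.4% and 100%. The mean *Cebpa* level of progenitor- and neutrophil-like cells was below that of these neuron-like cells, so it is not read as above background. *Fbxw4* (r = 0.85) and *Cd68* (0.84), a lysosomal gene of macrophages, were most like it.

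*Spi1* (ENSMUSG00000002111, chr2:91082374-91115759) was present throughout the myeloid cells. Its level was 573, 663 and 798 CPM in mature-neutrophil-like cells (678 ± 113), 577, 511 and 566 in classical-monocyte-like cells (551 ± 35.2) and 501, 547 and 556 in immature-neutrophil-like cells (535 ± 29.6). Microglia-like cells (511 ± 46.9), cluster 24 (450.2 ± 7.83), a cluster of 179 cells resembling both classical monocytes and myeloid progenitors, cluster 5 (443 ± 35.7), border-macrophage-like cells (437 ± 26.0) and conventional-dendritic-cell-like cells (395 ± 27.6) came next, and the range of each overlapped that of its neighbour in this order. Myeloid-progenitor-like cells were lower, at 208 ± 41.6 CPM, and overlapped B-cell-like cells (208 ± 17.0 in mature and 195 ± 17.3 in pre-B and immature cells). T-cell-like cells had 78.6 ± 12.4 and NK-cell-like cells 81.1 ± 11.5 CPM, which is read as background.

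Over the neutrophil-lineage clusters *Spi1* went from 443 CPM in cluster 5 through 485 ± 47.5 in cluster 19, 569.9 ± 23.0 in cluster 13, 587 ± 122 in cluster 3 and 717 ± 111 in cluster 2 to 849 ± 159 in cluster 4. The ranges of neighbouring clusters overlapped except for clusters 19 and 13. Genes with levels much like those of *Spi1* included *Clec4a2* (r = 0.89) and *Fes* (0.87).

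Setting the immature-neutrophil-like against the mature-neutrophil-like cells, 5 of the 8 genes had at least 20 UMIs. *Cebpe* was higher in the immature cells without overlap between the libraries, as were 11.1% of all 7852 genes. *Cebpb* and *Spi1* were lower without overlap, and so was *Cebpa*, whose mean in both stages was below that of olfactory-sensory-neuron-like cells. Of all genes, 17.1% were lower in this way. *Irf8* overlapped.

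*Irf8* (ENSMUSG00000041515, chr8:120736358-120756694) was highest in plasmacytoid-dendritic-cell-like cells, at 3218, 3400.02 and 3862 CPM (3493 ± 332), although these were only 53 cells. After thinning, 77.4% of them held an *Irf8* UMI, against 3.33% of T-cell-like cells. Microglia-like cells had 695, 878 and 698 CPM (757 ± 104). Cluster 24 had 597, 965 and 611 CPM (724 ± 209), which overlapped the microglia-like range. Classical-monocyte-like cells (287 ± 67.6) were below cluster 24 without overlap.

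Antigen-presenting cells held intermediate levels of *Irf8*. Mature-B-cell-like cells had 485 ± 21.9 CPM, conventional-dendritic-cell-like cells 422 ± 68.8 and border-macrophage-like cells 388 ± 24.2. The leading genes of the mature-B-cell-like clusters 10 and 12 included *Cd79a*, *Cd79b* and *Ebf1*, which are on the marker list of pre-B and immature B cells. Neutrophil-like cells had the lowest levels of all, with 60.4 ± 12.0 CPM in the mature and 57.8 ± 8.47 in the immature cells. These values were no higher than the 84.2 ± 18.2 CPM of T-cell-like or the 64.5 ± 11.1 of fibroblast-like cells, so *Irf8* was not detectable above background there. *Snx5* (r = 0.85), *Pld4* (0.82) and *Plekho1* (0.80) were most like *Irf8*. Plasmacytoid-dendritic-cell-like cells entered these correlations from CSD replicate 1 only, with 22 cells.

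*Sall1* (ENSMUSG00000031665, chr8:89027242-89044162) separated microglia-like cells from other macrophages. They held 43 of its 54 UMIs, at 66.2, 38.6 and 54.7 CPM (53.1 ± 13.9). Border-macrophage-like cells had 0 UMIs in every library, which allows up to 3.14, 17.7 and 9.94 CPM. The genes most like *Sall1* were *Adora3* (r = 0.90), *Crybb1* (0.90) and *Slc2a5* (0.89).

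*Gata2* (ENSMUSG00000015053, chr6:88193891-88207032) was highest in basophil-like cells, a cluster of 36 cells led by *Mcpt8* and *Prss34*, with 408, 242 and 195 CPM (281 ± 112, from 42 UMIs). Myeloid-progenitor-like cells followed with 49.3, 121 and 33.4 CPM (67.8 ± 46.5, from 46 UMIs) and did not overlap them. An unnamed cluster led by *Igfbp7* and *Actb*, with *Epcam* and *Flt1* also among its leading genes, had 31.3 ± 19.5 CPM from 9 UMIs. Basophil-like cells numbered 10, 8 and 18, under the 20 cells needed, so they are in none of the sums behind the correlations. Over the sums that remained, *Ms4a2* (r = 0.78), a chain of the IgE receptor, and the protease gene *Cpa3* (0.75) were most like *Gata2*. Both genes are on the basophil marker list. The next was *Krt18* (0.72), a keratin gene of epithelial cells.

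**Figure D2:**
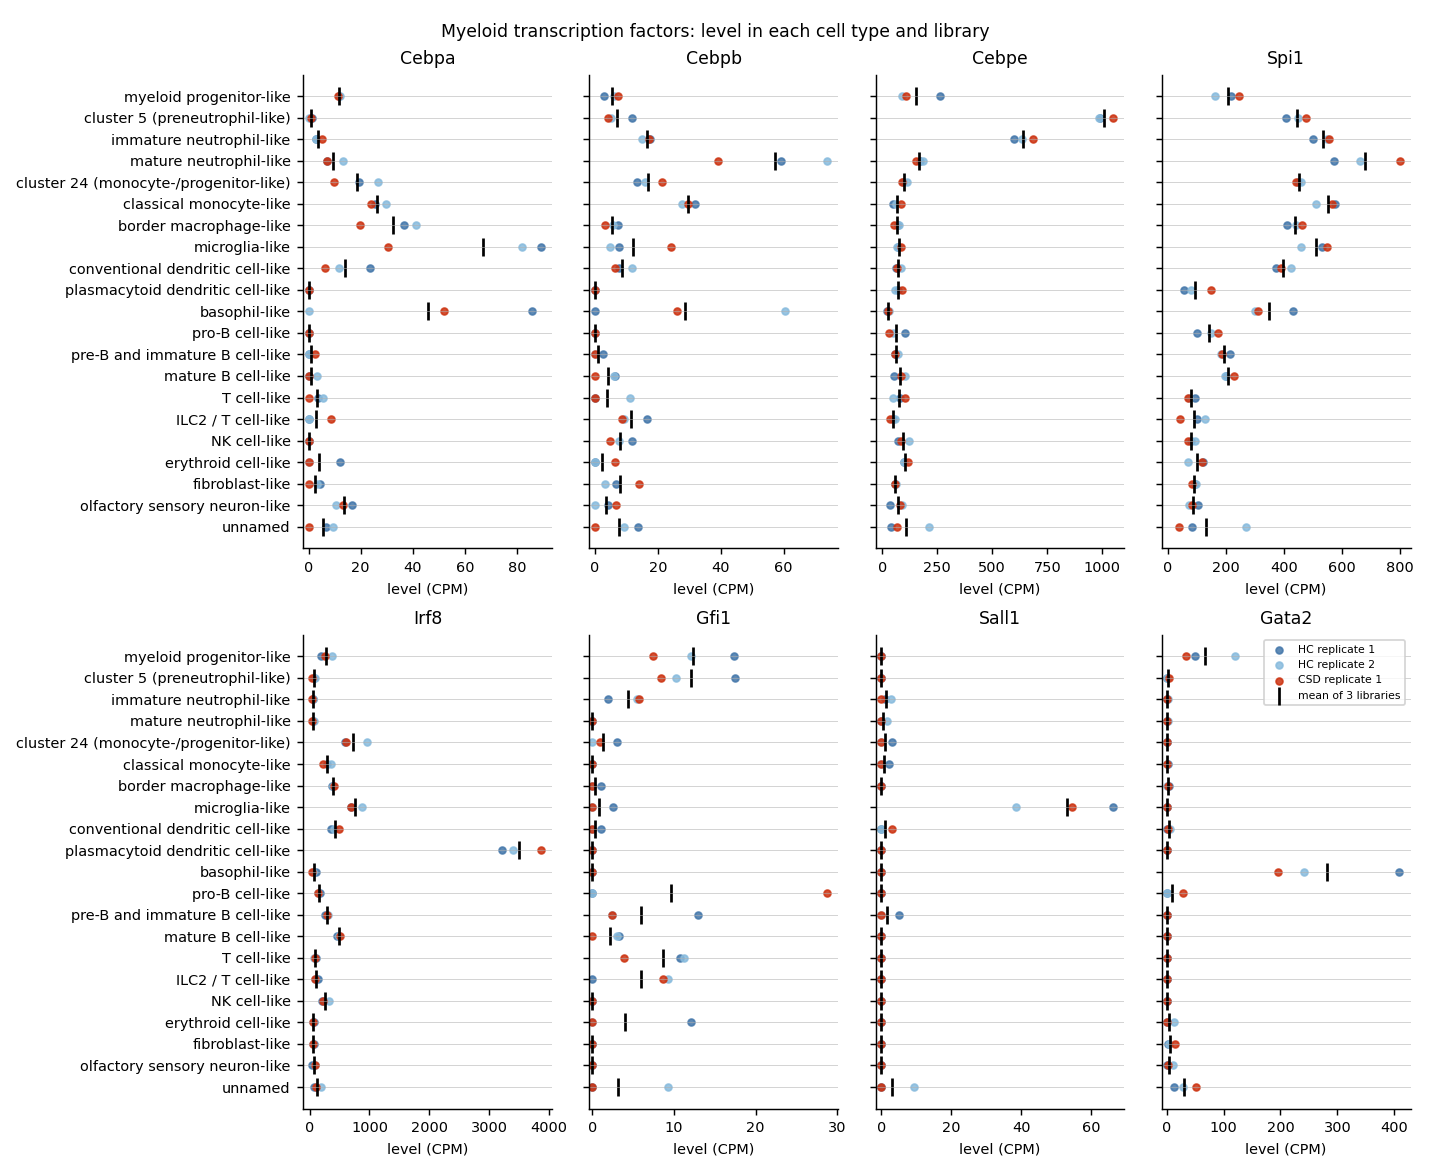
Level in CPM of each transcription factor in each cell type (rows), with 1 point for each library and a black bar at the mean; each panel has its own linear scale. *Irf8* stands out in plasmacytoid-dendritic-cell-like cells (3493 CPM), *Sall1* in microglia-like cells (53.1 CPM), *Gata2* in basophil-like cells (281 CPM) and *Cebpe* in cluster 5 (1008 CPM).

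CSD was compared with HC in the 15 cell types that had at least 20 cells in each library, with edgeR's quasi-likelihood test on UMIs summed by library, for genes of at least 20 UMIs. The transcription factors gave 55 pairs of a gene and a type. None of these pairs passed the threshold (adjusted p under 0.05), by edgeR or by DESeq2, and 5 had an unadjusted p under 0.05 by edgeR. These 5 lay in mature-neutrophil-, classical-monocyte- and microglia-like cells and in a cluster resembling both ILC2 and T cells. Of all genes there, 614 of 5894, 401 of 5359, 195 of 4358 and 74 of 2256 had an unadjusted p under 0.05. The lowest adjusted p by edgeR was 0.173. Only the 2 HC libraries gave a spread, which was taken to hold for the CSD pool as well. Over all genes tested, the share past the threshold was 1.87% in immature-neutrophil-, 1.00% in mature-neutrophil-, 0.728% in classical-monocyte-, 0.766% in cluster 24, 0.175% in border-macrophage-, 0.0229% in microglia- and 0.104% in conventional-dendritic-cell-like cells. In the lymphoid and other cells it was 0.642% in NK-cell-, 0.114% in T-cell-, 0.0189% in pre-B- and immature-B-cell-, 0.604% in olfactory-sensory-neuron-, 0.0998% in fibroblast-like and 0.409% in unnamed cells, and 0.00% in mature-B-cell-like cells and in a cluster resembling both ILC2 and T cells. The values in the CSD comparison are in CPM scaled by TMM, a normalization for library composition, and differ slightly from the plain CPM above.

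*Spi1* in mature-neutrophil-like cells had that lowest value. Its level was 577 and 623 in HC and 885 in CSD, so CSD lay above both HC libraries, as it did for 33.9% of genes in these cells. The log2 fold change was 0.56 ± 0.17 (SE), which did not pass the threshold. With no filter on UMIs the log2 fold change was 0.69 and the adjusted p of edgeR 0.0124, and over the other alternatives the adjusted p ran from 0.113 to 0.999. In immature-neutrophil-like cells the log2 fold change of *Spi1* was 0.26 ± 0.18 (adjusted p = 0.742). In both stages together it was 0.45 ± 0.11 (adjusted p = 0.591). There, the adjusted p was 0.0402 with no filter and from 0.303 to 1.00 over the other alternatives, and 0.00% of 7852 genes passed by edgeR, against 649 genes at an unadjusted p under 0.05 and 21 genes by DESeq2.

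The makeup of the mature-neutrophil-like cells also differed between the libraries, which held 543, 370 and 872 of them. Cluster 3 held 159 and 121 cells in the HC libraries and 336 in CSD, cluster 2 held 178, 116 and 284, and cluster 4 held 206, 133 and 252. Cluster 4 was thus the largest of the 3 in both HC libraries, and cluster 3 the largest in CSD. In each of the 3 clusters the CSD library had the highest plain level of *Spi1*, at 726 CPM against 497 and 539 in cluster 3, 813 against 596 and 744 in cluster 2, and 1008 against 691 and 849 in cluster 4. The plain level of *Cebpb* in CSD was 51.5 CPM against 66.6 and 90.7 in cluster 2 and 58.1 against 114 and 130 in cluster 4. In cluster 3 it was 27.3 CPM, between the HC values of 25.6 and 39.9. The part of the makeup in the levels of *Spi1* and *Cebpb* was not tested.

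*Cebpb* in mature-neutrophil-like cells stood at 59.6 and 69.2 in HC and 43.6 in CSD, below both HC libraries, as were 34.1% of genes. The log2 fold change was -0.55 ± 0.28 and did not pass (adjusted p = 0.510), and with the profile of near-empty barcodes subtracted it was -0.90. *Cebpe* stood at 607 and 595 in HC and 754 in CSD in immature-neutrophil-like cells, a log2 fold change of 0.33 ± 0.17 (adjusted p = 0.561). In mature-neutrophil-like cells *Cebpe* was 171, 173 and 168, a log2 fold change of -0.03 ± 0.20 (adjusted p = 0.974), or -0.48 ± 0.22 after that subtraction (adjusted p = 0.882). *Irf8* was at background in neutrophil-like cells of all libraries.

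In classical-monocyte-like cells *Irf8* was 315 and 346 in HC and 226 in CSD, a log2 fold change of -0.55 ± 0.23 that did not pass (adjusted p = 0.557). *Spi1* was 612, 506 and 593 (0.09 ± 0.21), *Cebpa* 27.0, 29.6 and 25.1 (-0.17 ± 0.53) and *Cebpb* 33.7, 27.4 and 30.9 (0.02 ± 0.50), so the CSD value of *Spi1* and *Cebpb* lay between the HC values. *Cebpe* was 49.5 and 63.8 in HC and 90.8 in CSD (0.68 ± 0.33, adjusted p = 0.655). Near-empty barcodes differed in the same direction, with 143, 186 and 270.0 CPM of *Cebpe*, and after subtraction of their profile the log2 fold change was 2.23 ± 0.91 (adjusted p = 0.636).

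*Cebpa* in microglia-like cells was 95.5 and 87.0 in HC and 32.8 in CSD, a log2 fold change of -1.48 ± 0.54 that did not pass (adjusted p = 0.931). Its CSD value was below both HC libraries in 5 of the 6 cell types tested, namely microglia-, border-macrophage-, classical-monocyte- and conventional-dendritic-cell-like cells and cluster 24. Of all genes, 36.4%, 31.5%, 34.0%, 36.6% and 30.9% lay below both in these types. In near-empty barcodes *Cebpa* also differed in that direction, with 20.6 and 16.0 CPM in HC and 8.94 in CSD, where the CSD value rested on 5 UMIs. After subtraction of this profile the log2 fold change in microglia-like cells was -1.71 ± 0.72 (adjusted p = 0.502). *Sall1* in microglia-like cells was 70.9 and 40.9 in HC and 59.0 in CSD (-0.02 ± 0.54, adjusted p = 0.999). *Spi1* (0.15 ± 0.25) and *Irf8* (-0.14 ± 0.25) differed by less than their errors there.

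**Figure D3:**
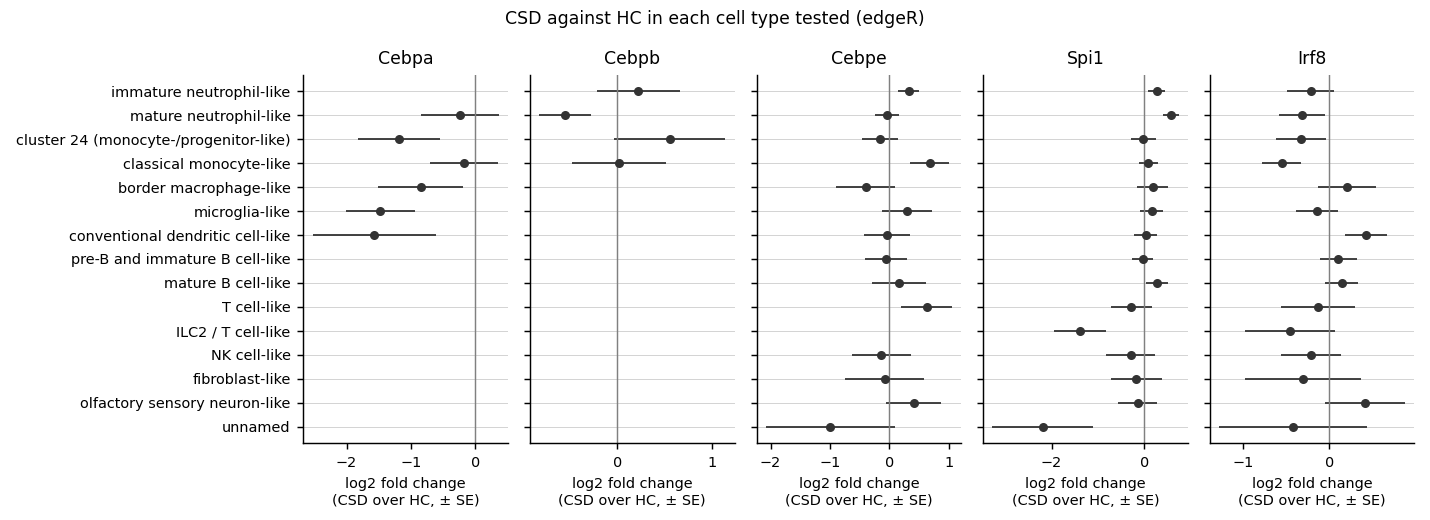
Log2 fold change of CSD over HC with its SE (horizontal bars) for *Cebpa*, *Cebpb*, *Cebpe*, *Spi1* and *Irf8* in each cell type in which the gene had at least 20 UMIs; the vertical line is no change. None passed the threshold, and *Spi1* in mature-neutrophil-like cells (0.56 ± 0.17) had the lowest adjusted p, 0.173.

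Differences of the CSD effect between cell types were tested in a model with library as a block. Between neutrophil-like cells and classical-monocyte-like cells none of 5 transcription factors differed at the threshold, and 0.191% of 5230 genes did. Between mature- and immature-neutrophil-like cells none of 4 did, and 0.577% of 5546 genes did. The difference for *Spi1* was 0.35 ± 0.11 on the log2 scale in the latter (edgeR, adjusted p = 0.181) and 0.32 ± 0.15 in the former (adjusted p = 0.511).

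Granule genes known as targets of C/EBP epsilon were part of the CSD comparison through a list of 9. Of these, *Camp*, *Ngp*, *Ltf*, *Chil3* and *Lcn2* are also on the marker list by which immature-neutrophil-like cells were named. In immature-neutrophil-like cells 4 of 9 rose, namely *Hp* (haptoglobin, log2 fold change 1.09 ± 0.16, adjusted p = 1.75e-09 by edgeR), *Chil3* (0.60 ± 0.15), *Lcn2* (0.59 ± 0.14) and *Ngp* (0.57 ± 0.14), and none fell, where 0.447% of all genes rose. None of these 4 calls held with DESeq2 (adjusted p = 0.264 for *Hp* and 1.00 for the others), among genes in more than 15% of cells (0.121 to 0.404) or after the subtraction (0.0626 to 0.305). The median over the 9 was 0.45, against -0.02 over all genes. *Lcn2*, the gene of the iron-binding protein lipocalin 2, went from 12168 and 11671 in HC to 17933 in CSD. In mature-neutrophil-like cells 2 of 9 rose, *Hp* (1.06 ± 0.16) and *Chil3* (0.81 ± 0.17), and 8 had a positive fold change, where 0.526% of all genes rose. With DESeq2 *Hp* passed (adjusted p = 0.0417) and *Chil3* did not (0.594). After the subtraction neither did (0.806 and 0.882), nor among genes in more than 15% of cells (0.0580 and 0.197), and *Chil3* also missed the threshold with doublets kept (0.0609). In both stages together none of the 9 passed, with 9 positive fold changes and a median of 0.45. *Camp* went from 31980 and 30212 to 37239 (0.26 ± 0.10) and *Ngp* from 26841 and 26759 to 39964 (0.58 ± 0.09).

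Granule genes had positive medians in the other cell types tested too, lymphoid and non-blood cells included, except in the unnamed cells (-0.46). The median over the 9 was 0.51 in T-cell-like cells, 0.56 in mature-B-cell-like, 0.49 in NK-cell-like, 0.52 in pre-B- and immature-B-cell-like, 0.43 in fibroblast-like and 0.36 in olfactory-sensory-neuron-like cells. By edgeR 1 of the 9 rose past the threshold in NK-cell-like cells, where 8 of 9 fold changes were positive. In the cluster resembling both classical monocytes and myeloid progenitors 1 of the 9 also rose, with 8 positive and a median of 0.65. In microglia-like cells 0 passed, 7 of 9 were positive and the median was 0.46. In classical-monocyte-like cells, where the median was 0.51 and 0.280% of all genes rose, *Mmp8* (1.32 ± 0.22, adjusted p = 0.000233) and *Hp* (0.84 ± 0.20, adjusted p = 0.0246) rose by edgeR. Neither passed with DESeq2 (adjusted p = 1.00 for both) or with no filter on UMIs (0.798 for both), and after the subtraction *Mmp8* passed with a log2 fold change of 3.03 and *Hp* did not (0.420). These genes were singled out after their values were seen.

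In the other lists no gene passed in neutrophil-like cells of both stages together. Of 3 genes listed as other C/EBP genes 1 was positive, with a median of -0.31, the value of *Cebpz*. *Cebpz*, which was listed by its symbol and is not taken here as a member of the family, went from 117 and 98.0 to 87.0 (-0.31 ± 0.18). *Ddit3*, the stress-response factor CHOP, went from 66.7 and 69.3 to 52.1 (-0.38 ± 0.16). Of 19 measured among 24 other myeloid transcription factors 6 were positive, with a median of -0.19. *Id2* had a log2 fold change of -0.19 ± 0.18 and *Irf2* of 0.41 ± 0.26. Among myeloid receptor and effector genes known as targets of C/EBP or PU.1, 6 of 11 rows for 10 genes were positive, with a median of 0.11 (*Itgam* had 2 rows). *Tyrobp*, a signalling adaptor, had 0.28 ± 0.11 and *Cybb*, the catalytic subunit of the phagocyte oxidase, -0.05 ± 0.11. In immature-neutrophil-like cells *Csf1r* was 62.0 and 24.5 in HC and 16.3 in CSD, a log2 fold change of -1.45 ± 0.34 (adjusted p = 0.00243), and was the only 1 of these receptors to pass, where 1.42% of all genes fell. Leaving out HC replicate 1 gave -0.58 and leaving out the other HC library gave -1.91 on the log2 scale, and the call was lost with DESeq2 (adjusted p = 1.00) and with doublets kept (0.0724).

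Of the 3 measured among 5 mast and basophil genes, all were positive in both stages together, with *Hdc*, the histamine-forming enzyme, at 0.17 ± 0.12 and *Cpa3* at 0.19 ± 0.73. All 4 microglia genes had a negative fold change there, with a median of -1.12, and *Tmem119* had -1.43 ± 0.35. Microglia-like cells themselves were 181 of 2552 and 92 of 1677 cells in HC and 89 of 2642 in CSD. Their part in these values was not tested.

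**Figure D4:**
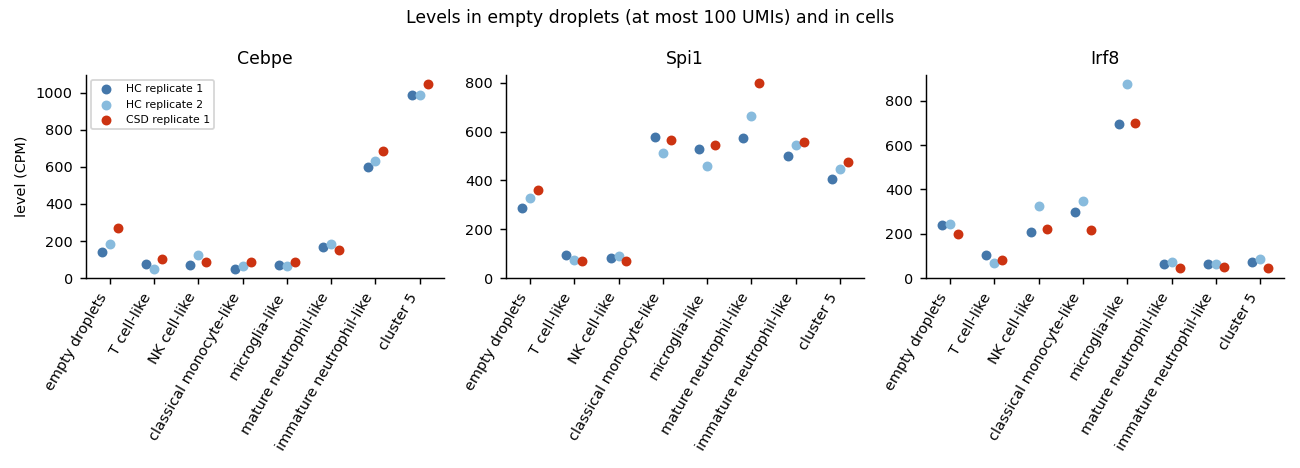
Level in CPM of *Cebpe*, *Spi1* and *Irf8* in near-empty barcodes of at most 100 UMIs (empty droplets) and in 7 groups of cells, with 1 point for each library. T-cell-like cells hold 78.0 CPM of *Cebpe*, 78.6 of *Spi1* and 84.2 of *Irf8* on average, all below the empty droplets of each library, and *Irf8* in neutrophil-like cells lies at this level.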

How the data were processed

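The authors counted reads with Cell Ranger 2 on mm10, per the labels and the submitters' processing notes, and deposited 1 matrix of raw UMI counts over all barcodes. Barcode endings were matched to libraries through the numbers in the sample labels. The genes and lists were chosen with earlier results of these data known. Doublets were removed with Scrublet in scanpy 1.11.5 (47, 25 and 114 cells; in CSD replicate 1 by the top 5.1% of scores, as the automatic threshold marked 0.145%). Cells were normalized with scran 1.30.0, libraries aligned by mutual nearest neighbours on 50 components, and 6871 cells clustered by Leiden at resolution 2. Resolution 1 was planned, but it merged T with NK cells and plasmacytoid dendritic cells with progenitors, and became the alternative. In a further alternative the profile of barcodes of at most 100 UMIs was subtracted from the summed counts. A cluster took the name of the marker list with the highest mean score, or stayed unnamed with under 3 detected markers. Summed counts were tested with edgeR 4.0.16 (two-sided, TMM, Benjamini-Hochberg within each type; 1 residual degree of freedom, moderated over genes), and DESeq2 1.42.0 was an alternative. Scripts were tested on simulated data. Named genes are all the transcription factors, the 3 genes most like each by Pearson r of log2(CPM + 10) among 9326 genes of at least 100 UMIs, and from each list the genes past the threshold in all neutrophil-like cells or, where none passed, the 2 with the most UMIs. Some genes that this rule names are not reported here. Gene coordinates are from RefSeq, GRCm38.p6. Depth was 8814690 to 10206236 UMIs a library. SDs, intervals and limits rest on counts and 3 pools.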

Additional observations from a re-analysis of the deposited data

Results flagged for a closer look

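*Cebpe* in barcodes of at most 100 UMIs stood above the control level. The comparisons of cells use these barcodes only in the alternative that subtracts their profile. It was 270.0 CPM in CSD replicate 1 (exact 95% Poisson interval 229 to 317, from 151 UMIs), against 143 CPM in HC replicate 1 (117 to 172) and 186 in HC replicate 2 (168 to 205). The intervals cover counting error only. The other 7 transcription factors did not separate from both HC libraries in this way.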

How the results depend on the processing

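No paired analysis was possible because each library was a separate pool of mice, and a replicate number does not pair an HC pool with the CSD pool. Of 119 recomputed ratios of levels between cell types or stages 104 moved by less than 1 SD. Of 230 recomputed CSD fold changes of transcription factors 213 kept their direction and, where a test was run, their side of the threshold. Of 86 recomputed fold changes of list genes that had passed 26 no longer passed. Both totals include fold changes without 1 HC library, which gave no p, were judged by sign only and could not lose a call. Of 27 recomputed counts of genes 6 stayed within 1.5 times. The cause was not tested for any of those that moved. Numbers of genes past the threshold were unstable. In neutrophil-like cells (0) they were 21 with DESeq2, 6 for genes in more than 15% of cells, 278 with no filter, 36 with doublets kept, 10 for cells with at least 1000 UMIs and 20 after subtraction of the empty-droplet profile. In classical-monocyte-like cells (39) they were 1 with DESeq2, 0 with no filter and 62 with doublets kept. In border-macrophage-like cells (10) they were 1 with DESeq2 size factors, 0 with DESeq2, 5 for genes in more than 15% of cells, 6 with no filter, 0 with doublets kept and 0 after subtraction. For the difference between neutrophil- and monocyte-like cells (10) they were 1 with DESeq2, 55 with doublets kept and 53 at 1000 UMIs, and for that between mature and immature cells (32) they were 0, 0 and 16. Log2 ratios of levels moved at Leiden resolution 1 for *Cebpb* in mature-neutrophil- over classical-monocyte-like cells (0.93 to 1.59), *Irf8* in plasmacytoid-dendritic-cell- over microglia-like cells (2.20 to 0.34), and, in immature- over mature-neutrophil-like cells, *Cebpb* (-1.73 to -2.27), *Cebpe* (1.92 to 2.52) and *Spi1* (-0.34 to -0.53). With doublets kept, the *Irf8* ratio was 1.65 and the last *Cebpe* ratio 2.38. After subtraction the last *Cebpe* ratio was 2.34 and the immature over mature ratio of *Irf8* was -1.67 against -0.06, or -0.20 with equal weight per cell. The *Cebpe* ratio of cluster 5 to immature-neutrophil-like cells (0.65) was 0.80 with the genes kept in the clustering, 0.57 at resolution 1, 0.57 without batch correction and 0.47 with doublets kept. Without 1 library, the *Cebpa* ratio of microglia- to basophil-like cells (0.54) ran from -0.20 to 1.08 and was negative without HC replicate 2. Signs of CSD log2 fold changes near 0 turned for *Cebpb* in classical-monocyte-like cells (-0.15 with doublets kept, -0.15 after subtraction, from -0.12 to 0.17 without 1 HC library), *Spi1* there (-0.021 after subtraction, from -0.045 to 0.23 without 1 HC library), *Cebpa* in neutrophil-like cells (from -0.047 to 0.51 without 1 HC library, and from -0.64 to 0.18 in the mature cells), *Cebpb* in the immature cells (-0.082 after subtraction), *Cebpe* in the mature cells (0.089 with no filter, 0.043 with doublets kept), *Irf8* in microglia-like cells (from -0.30 to 0.019 without 1 HC library) and *Sall1* there (0.00063 with DESeq2 size factors, 0.073 with DESeq2, 0.039 with doublets kept, from -0.26 to 0.52 without 1 HC library). *Gfi1*, *Sall1* and *Gata2* rest on 74, 54 and 126 UMIs, so their levels outside their highest cell types are at the limit of detection.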
